A study of Mus musculus with 8 samples.

Results

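The extracellular matrix, the integrins that bind it and the proteins that tie integrins to actin were followed as a group of 104 genes among the 10987 transcripts listed for mouse oligodendrocyte progenitor cells (OPCs) and oligodendrocytes. Members were chosen by matching gene symbols, with no threshold on a measured value. They comprised 30 collagen chains, 6 laminin chains, 2 other basement membrane proteins, 7 integrin α subunits, 3 integrin β subunits, fibronectin and tenascin-R, 4 chondroitin sulfate proteoglycans, 6 focal adhesion proteins, 17 membrane Adam proteases, 13 secreted Adamts proteases and Adamts-like proteins, 4 matrix metalloproteinases, 4 metalloproteinase inhibitors and 4 thrombospondin or Sparc family members. The remaining 2, Itgb3bp, which encodes a centromere protein, and Itgbl1, share the integrin symbol root but are not integrin subunits. Tnc, Cspg4, Itgb5, Lama2, Ptk2, Adamts4 and Mmp14 are not analysed here.

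Total RNA and ribosome footprints, the mRNA fragments that a translating ribosome shields from nuclease, were sequenced from 2 OPC cultures and 2 oligodendrocyte cultures, which gives 8 libraries. All cells were of strain 129S/SvEv and descended from epiblast stem cells, and all were grown on plastic coated with poly-L-ornithine and laminin, so that laminin protein was supplied from outside in both groups. OPCs were kept in medium with bFGF and PDGFA and received no differentiation treatment, whereas oligodendrocytes were differentiated with thyroid hormone (T3) in medium with noggin, IGF-1, cyclic AMP and NT3, and both were collected after 3 days. Per the study's methods, some cells in the differentiated dishes remained OPCs, and the lysates of several dishes were pooled for each cell type.

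The extracellular matrix is a mesh of collagens, laminins, proteoglycans and glycoproteins that cells secrete, and that proteases of the Adam, Adamts and Mmp families cut and Timp inhibitors protect. Integrins, pairs of an α and a β subunit, grip this mesh, and inside the cell talin, kindlin and the complex of Ilk, parvin and PINCH connect them to actin. The matrix of the brain is rich in hyaluronan, chondroitin sulfate proteoglycans and tenascins and holds little fibrous collagen, and oligodendrocyte lineage cells use laminin-binding integrins when they extend processes.

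Values are FPKM, fragments scaled to transcript length (for footprints, to coding length) and to the mapped fragments of each library, so levels can be compared between genes. The estimated aligned bases ran from 77.9 to 241 Mb for RNA-seq and from 93.0 to 249 Mb for footprints, lowest in oligodendrocyte replicate 2 in both kinds. The share of members listed at 0 was 9.62% and 21.2% in the OPC RNA-seq libraries, 18.3% and 32.7% in the oligodendrocyte ones, 29.8% and 30.8% in OPC footprints, and 26.9% and 54.8% in oligodendrocyte footprints. In oligodendrocyte footprints of replicate 2, 29 members were listed at 0 that replicate 1 listed above 0, and for 14 of them at least 300 aligned bases would correspond to the level in replicate 1 at that depth. The oligodendrocyte marker list rose in 6 of its 6 members tested in RNA-seq, with a level summed over the list of 28.3 and 31.0 in OPCs against 3520 and 3015 in oligodendrocytes (FPKM), and Mag, Mog and Myrf were listed at 0 in OPC RNA-seq. The OPC list summed to 1087 and 962 against 1398 and 1427 FPKM, but its genes moved in unlike directions. Of 6 tested in RNA-seq, 3 rose (Gpr17, Pdgfra and Sox4) and 1 fell. Gpr17 went from 8.38 and 4.91 to 221 and 271 FPKM, and Sox11 fell from 37.9 and 40.9 to 9.68 and 8.70 FPKM. Olig1, the largest part of the sum, overlapped between the groups at 693 and 571 against 735 and 686 FPKM, as did Ptprz1. The astrocyte list summed to 307 and 221 against 1021 and 896 FPKM (Gfap 0.155 and 0 against 14.2 and 2.11). Most of this difference lay in S100b, which oligodendrocyte lineage cells also make, at 20.6 and 12.6 against 675 and 633 FPKM, and the 5 other listed genes summed to 286 and 209 against 346 and 263 FPKM. Of these, Aldoc and Fgfr3 overlapped between the groups in RNA-seq, while Slc1a2, Gfap and Aldh1l1 were higher in both oligodendrocyte cultures. Slc1a2 had 13.5 and 10.6 against 47.6 and 36.5 FPKM. Slc1a2 and Gfap passed in limma (adjusted p = 0.00416 and 0.0195) and Aldh1l1 did not (0.102). The neuron list summed to 31.0 and 22.5 against 70.6 and 79.9 FPKM. Few fibroblast or mural (1 of 9), endothelial (1 of 5), microglial (2 of 6) and pluripotent (1 of 4) markers were listed. Those listed were under 1 FPKM in every RNA-seq library, and the others could not be assessed. The Schwann cell list summed to 0.783 and 0.557 against 3.00 and 1.29 FPKM in RNA-seq, with Pmp2 listed at 0 in OPCs and at 2.24 and 0.465 FPKM in oligodendrocytes (footprints of 12.4 FPKM in replicate 1 and listed at 0 in replicate 2) and the other three genes under 1 FPKM. The part of other cell types in the results below was not tested. In bulk cultures, fewer cells of a type and less RNA per cell cannot be told apart.

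With all cultures included, more matrix and adhesion genes rose than fell in oligodendrocytes. This order did not hold when oligodendrocyte replicate 1 was left out, where rises and falls were near equal in number. Of 56 members with enough RNA to test, 15 were higher and 10 lower in oligodendrocytes (26.8% and 17.9%, against 13.0% and 20.2% of all 8346 transcripts tested). Of 54 members tested in footprints, 17 were higher and 4 lower (31.5% and 7.41%, against 12.8% and 10.8% of all 8342). The median log2 fold change was 0.19 over members and -0.23 over all transcripts in RNA-seq, and 0.30 and -0.16 in footprints. With no minimum on FPKM the members' median in RNA-seq was -0.18, over 100 members. In both kinds of library 15 genes passed, all 15 in the same direction. Both kinds came from the same cultures and the share over all transcripts is not given, so this agreement is not shown to be particular to the members. In every one of the 25 RNA-seq and 21 footprint calls both oligodendrocyte values lay on the same side of both OPC values. With 2 cultures in each group a call makes such separation likely in advance, so it adds no further support. Another 44 members were under the minimum in both kinds, with no value above 2.05 FPKM in RNA-seq or 2.81 FPKM in footprints.

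Calls are adjusted p-values under 0.05 from limma, which borrows the variance from all transcripts. With 2 cultures in each group they measure only the spread between these cultures, and an exact permutation of the cultures cannot go below a two-sided p of 0.333. Median-ratio scaling shifted the median of all transcripts in RNA-seq to -0.051, moved the share of rises among all RNA-seq calls from 39.1% to 51.5%, and changed the member counts to 17 higher and 8 lower, with no called member changing direction. The counts depended on single cultures: without OPC replicate 1 or 2, 8 and 6 members were higher and 1 was lower in RNA-seq, and none of the 21 footprint calls held (adjusted p between 0.077 and 0.283 in limma). Without oligodendrocyte replicate 1, higher and lower members were near equal in number in both kinds. The shares over all transcripts in that fit are not given, so this is not shown to be particular to the members. The fit rests on oligodendrocyte replicate 2, which had the lowest estimated depth. Of the members it added as lower in footprints, Adam12, Adam15, Col5a1, Col5a2 and Mmp17 were listed at 0 in that replicate. Without oligodendrocyte replicate 2, 12 were higher and 4 lower in RNA-seq, and 14 higher and 3 lower in footprints. The RNA-seq calls of Tnr, Col9a1, Col9a3, Col11a2, Adam11, Parvb and Adam12 held in each of the 9 alternative fits.

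**Figure D1:**
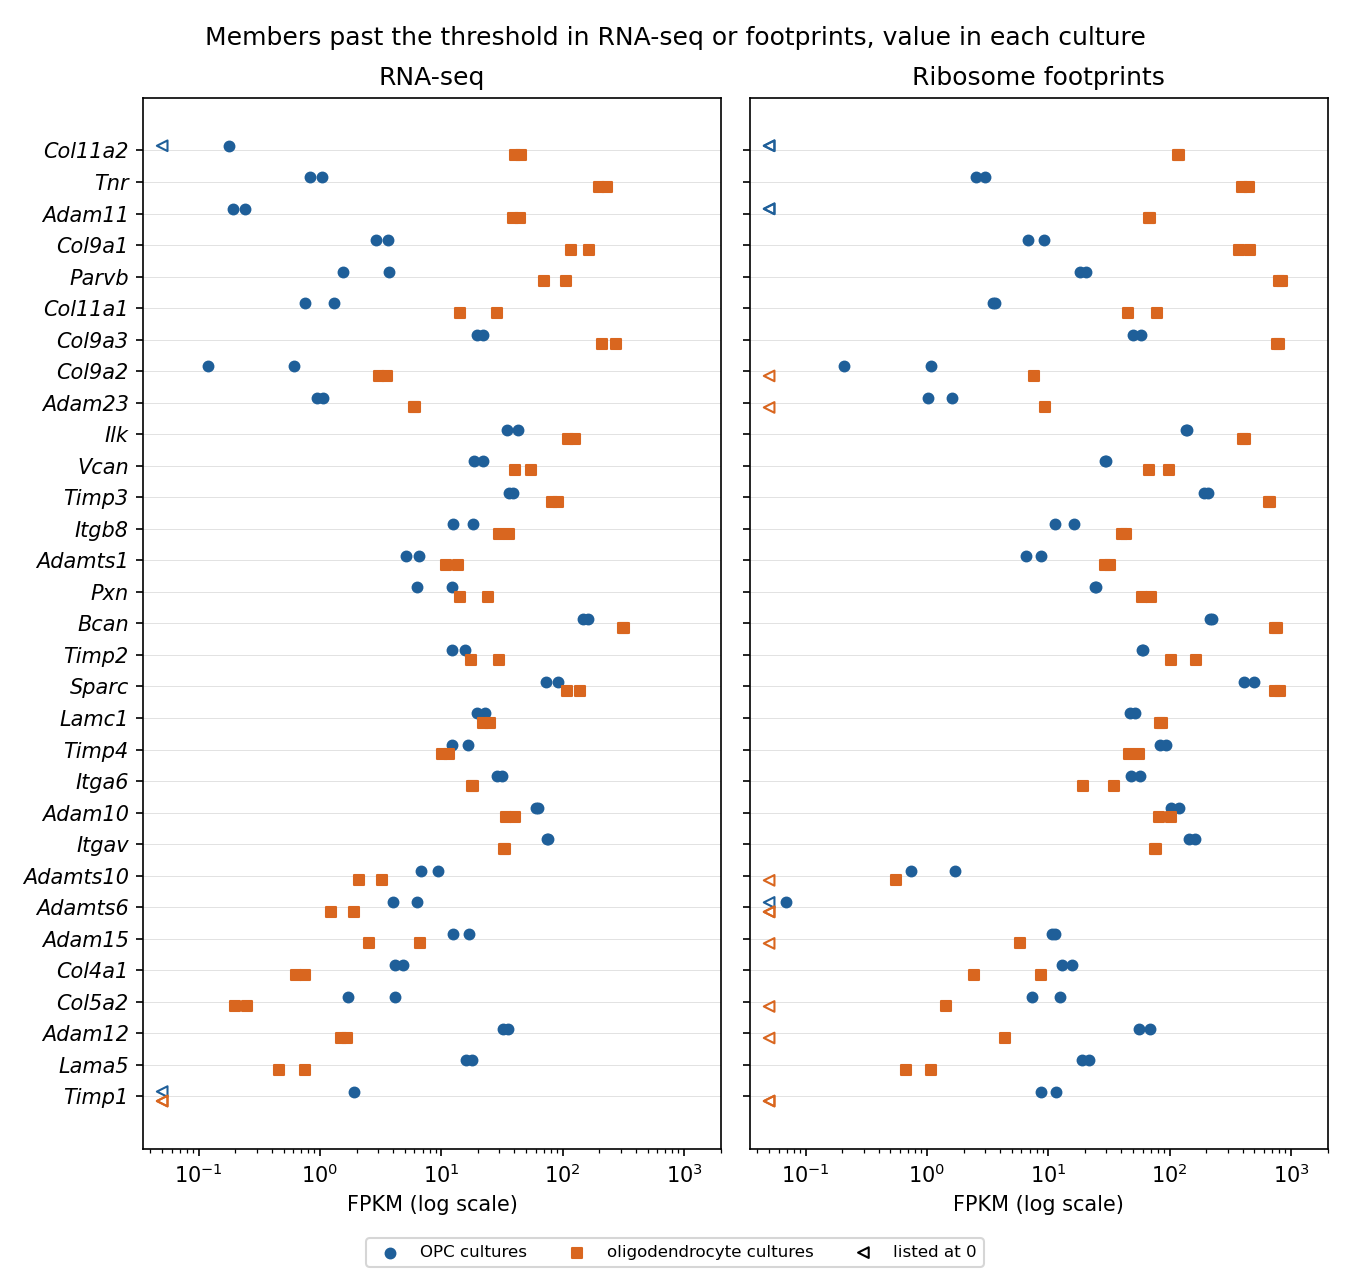
FPKM on a log scale of the 31 members past the threshold in RNA-seq or footprints, RNA-seq on the left and footprints on the right, with OPC cultures as circles and oligodendrocyte cultures as squares and values listed at 0 as open triangles at the left edge. From Col11a2 and Tnr at the top to Lama5 and Timp1 at the bottom, genes are ordered by their log2 fold change, and Tnr moves from about 1 FPKM to 198 and 230.0 FPKM in RNA-seq.

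The steepest well-measured rise belonged to Tnr, which encodes tenascin-R, a matrix glycoprotein of the central nervous system that oligodendrocytes deposit around axons. Tnr RNA was at 1.03 and 0.832 FPKM in the OPC cultures and at 230.0 and 198 FPKM in the oligodendrocyte cultures. Its footprints went from 2.99 and 2.55 FPKM to 449 and 398 FPKM. The groups did not overlap in either kind of library, with log2 fold changes of 7.70 ± 0.22 (SE) in RNA-seq (limma adjusted p = 0.000123) and 7.21 ± 0.18 in footprints (adjusted p = 0.00279). The listed Tnr transcript spans chr1:159737510-159924397 on the plus strand (GRCm38) and has 22 exons. Fibronectin, encoded by Fn1, ran the other way: RNA-seq listed 4.99 and 4.49 FPKM in OPCs against 2.24 and 1.04 FPKM in oligodendrocytes. That difference did not pass (log2 fold change -1.56 ± 0.50, adjusted p = 0.0585), although it did with the replicate number as a block (adjusted p = 0.0402), with a pseudocount of 1 (0.0417) and without oligodendrocyte replicate 1 (0.0229).

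Of the lecticans, proteoglycans that carry chondroitin sulfate and bind hyaluronan and tenascins, 2 rose. Bcan (brevican) was the second most abundant member in OPC RNA-seq and the most abundant in oligodendrocytes, at 147 and 162 FPKM against 313 and 319 FPKM. Bcan footprints increased further, from 215 and 225 FPKM to 767 and 743 FPKM, giving log2 fold changes of 1.03 ± 0.14 in RNA-seq (adjusted p = 0.00518) and 1.78 ± 0.10 in footprints (adjusted p = 0.00416). Vcan (versican), a larger relative, had 18.5 and 22.1 FPKM in OPC RNA-seq and 40.7 and 54.3 FPKM in oligodendrocytes (log2 fold change 1.21 ± 0.22, adjusted p = 0.0107), and its footprints rose by 1.47 ± 0.23 (adjusted p = 0.0212). Both Bcan and Vcan thus sat above the OPC range in all 4 oligodendrocyte libraries. Ncan (neurocan) had 86.4 and 79.3 against 119.6 and 88.2 FPKM in RNA-seq and did not pass (0.31 ± 0.19, adjusted p = 0.258). Cspg5 (neuroglycan C), a membrane proteoglycan, had overlapping groups at 80.8 and 57.7 against 66.7 and 60.5 FPKM. The RNA-seq call of Bcan was lost without OPC replicate 1 (adjusted p = 0.0559) or 2 (0.055), and that of Vcan without OPC replicate 1 (0.096) or 2 (0.0857) or oligodendrocyte replicate 2 (0.0559). The footprint call of Vcan was also lost without oligodendrocyte replicate 2 (0.053) and without the variance trend (0.0615).

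Collagens differed in direction from chain to chain. Of 30 chains, 11 had enough RNA to test, 5 rose and 2 fell, and in footprints 4 of 11 rose and none fell at the threshold (7 of 11 tested chains were not called). The 5 that rose are all chains of collagens IX and XI, while Col27a1 (below) rose past the threshold under 4 of the 9 alternatives. Summed over the 30 chains, RNA-seq gave 55.9 and 41.0 FPKM for OPCs, with 412 and 539 FPKM for oligodendrocytes, and footprints 131 and 112 against 1352 and 1467 FPKM. Collagens IX and XI are best known from cartilage, where they associate with collagen II fibrils. Collagen IX is built from the products of Col9a1, Col9a2 and Col9a3, and collagen XI from those of Col11a1, Col11a2 and Col2a1.

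Col9a3 was the chain with the highest level, at 22.2 and 19.8 FPKM in OPC RNA-seq and 213 and 273 FPKM in oligodendrocytes (log2 fold change 3.52 ± 0.18, adjusted p = 0.000407). Col9a1 started lower, at 3.61 and 2.90 FPKM, and reached 118 and 166 FPKM (5.39 ± 0.25, adjusted p = 0.000328). Footprints of Col9a1 went from 9.28 and 6.78 FPKM to 369.5 and 460.3 FPKM, and those of Col9a3 from 58.2 and 49.5 FPKM to 769 and 794 FPKM. Both chains therefore exceeded every OPC value in every oligodendrocyte library. The third chain, Col9a2, stayed far below them, at 0.12 and 0.615 FPKM in OPC RNA-seq and 3.59 and 3.06 FPKM in oligodendrocytes (3.10 ± 0.79, adjusted p = 0.0313). Its call was lost when any culture was left out (adjusted p between 0.0685 and 0.105), and its footprints, 0.206 and 1.09 FPKM in OPCs, were 7.65 FPKM in oligodendrocyte replicate 1 and listed at 0 in replicate 2. With a pseudocount of 1 its log2 fold change was 1.68.

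Col11a2 was near absent from OPCs, at 0.176 FPKM and listed at 0 in RNA-seq and listed at 0 in both footprint libraries. In oligodendrocytes it stood at 40.8 and 45.2 FPKM in RNA-seq and at 116 and 120.4 FPKM in footprints (adjusted p = 0.000918 and 0.0041). Col11a1 rose from 0.748 and 1.31 FPKM to 14.1 and 28.6 FPKM in RNA-seq (4.21 ± 0.48, adjusted p = 0.00293) and from 3.64 and 3.48 FPKM to 45.3 and 78.6 FPKM in footprints (4.03 ± 0.37, adjusted p = 0.00812). For Col11a1 the RNA-seq call was lost without OPC replicate 1 (adjusted p = 0.0559) or 2 (0.055). The gene of the remaining collagen XI chain, Col2a1, had a single RNA-seq value above 0 (0.143 FPKM, oligodendrocyte replicate 1). In order of oligodendrocyte RNA level the chains ran Col9a3, Col9a1, Col11a2, Col11a1 and Col9a2, with no overlap between neighbours, whereas in OPCs Col9a3 led and the other four were under 4 FPKM.

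The chains that fell, Col4a1 and Col5a2, belong to the basement membrane collagen IV and the fibrillar collagen V. Not all collagen IV chains fell: in RNA-seq Col4a5 overlapped, at 0.992 and 1.45 against 2.31 and 0.798 FPKM. Col4a3, under the minimum, had 0.0255 FPKM and a value listed at 0 against 0.855 and 1.37 FPKM. It passed as higher in limma with no minimum (adjusted p = 0.019). Col4a1 dropped from 4.83 and 4.12 FPKM to 0.756 and 0.629 FPKM in RNA-seq (log2 fold change -2.53 ± 0.48, adjusted p = 0.0132). Col5a2 dropped from 4.18 and 1.70 FPKM to 0.199 and 0.252 FPKM (-3.10 ± 0.78, adjusted p = 0.0299). Neither passed in footprints, where Col4a1 had 15.8 and 12.9 against 8.70 and 2.45 FPKM (adjusted p = 0.191) and Col5a2 had 12.4 and 7.32 against 1.43 FPKM and a replicate listed at 0 (adjusted p = 0.113; with a pseudocount of 1, 0.0402). Col5a1, the partner chain of Col5a2, had 4.32 and 2.58 against 1.47 and 0.751 FPKM in RNA-seq and did not pass (adjusted p = 0.0831). Without oligodendrocyte replicate 1 its adjusted p was 0.0471. The exons of Col4a1 overlap those of Col4a2 on the other strand, where Col4a2 was under the minimum in RNA-seq. The RNA-seq call of Col4a1 was lost without OPC replicate 1 (0.109) or 2 (0.11), and that of Col5a2 without OPC replicate 2 (0.0824) or oligodendrocyte replicate 2 (0.0531). Without oligodendrocyte replicate 1, footprints of Col4a1, Col5a1 and Col5a2 passed as lower (adjusted p = 0.0197, 0.00882 and 0.0117), with the remaining oligodendrocyte value of Col5a1 and Col5a2 being one listed at 0.

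The bases upstream of Col9a1 and Col11a1, genes that moved together, are shown with those of Lama5, the laminin chain that fell (below). Each run is the 250 bases before the gene's RefSeq start (GRCm38.p6), 5′ to 3′ on the strand of the gene, at chr1:24177360-24177609 (plus) for Col9a1, chr3:114030290-114030539 (plus) for Col11a1 and chr2:180225860-180226109 (minus) for Lama5.
Col9a1: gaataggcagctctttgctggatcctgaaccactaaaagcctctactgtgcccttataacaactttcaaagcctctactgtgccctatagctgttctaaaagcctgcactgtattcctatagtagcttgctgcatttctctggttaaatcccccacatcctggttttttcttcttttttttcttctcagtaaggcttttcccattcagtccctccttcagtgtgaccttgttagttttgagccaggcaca
Col11a1: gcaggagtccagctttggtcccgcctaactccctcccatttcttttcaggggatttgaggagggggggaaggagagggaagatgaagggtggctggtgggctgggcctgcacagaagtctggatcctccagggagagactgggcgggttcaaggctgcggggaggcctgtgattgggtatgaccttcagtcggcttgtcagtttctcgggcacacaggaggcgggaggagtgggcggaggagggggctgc
Lama5: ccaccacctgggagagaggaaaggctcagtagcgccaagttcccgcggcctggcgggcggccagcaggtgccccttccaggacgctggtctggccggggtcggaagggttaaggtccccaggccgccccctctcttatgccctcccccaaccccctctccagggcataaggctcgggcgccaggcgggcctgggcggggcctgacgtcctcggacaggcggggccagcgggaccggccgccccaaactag
The GC content was 43.6% for Col9a1, 62.4% for Col11a1 and 72.4% for Lama5. Of the 74 members with a RefSeq promoter, 55 start within 50 bases of the listed transcript, and these were searched on both strands for GGAATG (the core of TEAD sites), TGAGTCA (AP-1, counted with its reverse complement TGACTCA) and ACAAAG (a core of SOX sites). They were found in 3, 2 and 8 of the 55 (5.45%, 3.64% and 14.5%), against 12.6%, 4.46% and 16.5% of all 32851 promoters of the same length. None of them occurs in the runs printed here, which says only that these letters are not in these windows.

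Laminins, trimers of an α, a β and a γ chain, changed mainly through Lama5, the α5 chain found in many basement membranes. Lama5 dropped from 15.8 and 17.8 FPKM to 0.457 and 0.751 FPKM in RNA-seq (-4.62 ± 0.40, adjusted p = 0.00139). Its footprints dropped from 18.9 and 21.5 FPKM to 1.08 and 0.666 FPKM (-4.42 ± 0.53, adjusted p = 0.0131), which leaves no overlap in either kind. Of 6 laminin chains, 4 were tested, and in RNA-seq Lama5 alone passed. Lama5 lost its RNA-seq call without OPC replicate 1 (adjusted p = 0.0506) or 2 (0.0595). Lamc1, the γ1 chain shared by most laminins, had overlapping RNA-seq values of 19.7 and 22.7 against 25.4 and 21.9 FPKM. Lamc1 footprints nevertheless rose from 46.8 and 51.5 FPKM to 83.5 and 86.7 FPKM (0.79 ± 0.13, adjusted p = 0.024), a call lost without oligodendrocyte replicate 2 (0.0796) and without the variance trend (0.0817). Lamb2 (β2) had footprints of 13.1 and 13.8 FPKM in OPCs against 7.13 and 3.31 FPKM in oligodendrocytes (limma adjusted p = 0.124). Oligodendrocyte replicate 2, with the 3.31 FPKM of footprints, is the culture whose RNA was listed at 0. In RNA-seq Lamb2 had 7.87 and 9.18 FPKM in OPCs, and 4.55 FPKM and that value listed at 0 in oligodendrocytes (adjusted p = 0.147). It passed with the replicate block (adjusted p = 0.0404) and without oligodendrocyte replicate 1 (0.00547), where the value listed at 0 is the only oligodendrocyte value. Lama4 (α4), at 5.43 and 4.07 against 3.24 and 2.19 FPKM, did not pass. Among other basement membrane proteins, Agrn (agrin) had 37.0 and 38.1 against 45.6 and 40.7 FPKM in RNA-seq (adjusted p = 0.384) and a footprint log2 fold change of 0.56 ± 0.15 (adjusted p = 0.0665). Hspg2 (perlecan), at 13.5 and 11.2 against 10.0 and 7.32 FPKM, did not pass either.

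Among the receptors, the 2 abundant α subunits fell while their common partner Itgb1 showed no called change. Itgb1, the β1 subunit that pairs with many α chains, was the most abundant member in OPC RNA-seq, at 188 and 226 FPKM, and had 171 and 188 FPKM in oligodendrocytes (-0.20 ± 0.16, adjusted p = 0.377). Its RNA-seq groups were barely apart, at 188.2 FPKM in OPC replicate 1 and 187.9 FPKM in oligodendrocyte replicate 2. Itgb1 footprints overlapped, at 386 and 528 against 446 and 484 FPKM. Itgav, the αv subunit of receptors for vitronectin and fibronectin, fell from 75.5 and 74.6 FPKM to 33.7 and 32.7 FPKM in RNA-seq (-1.17 ± 0.15, adjusted p = 0.00399). Itgav footprints fell from 143 and 161 FPKM to 77.3 and 76.2 FPKM (-0.98 ± 0.12, adjusted p = 0.0138). Itga6, the α6 subunit of laminin receptors, fell from 28.6 and 31.3 FPKM to 18 and 18.4 FPKM in RNA-seq (-0.72 ± 0.18, adjusted p = 0.0286). Its footprints, 48.1 and 57.2 against 34.7 and 19.3 FPKM, did not pass (adjusted p = 0.111). Of the β subunits, Itgb8, an αv partner that binds latent TGF-β and is outside the naming rule, rose from 12.6 and 18.3 FPKM to 29.7 and 35.8 FPKM in RNA-seq (1.10 ± 0.25, adjusted p = 0.0219). Its footprints rose by 1.61 ± 0.26 (adjusted p = 0.0228).

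Of 7 α subunits, 4 were under the minimum in both kinds of library, and the remaining one tested, Itga9, had 3.27 and 1.49 against 6.75 and 4.40 FPKM and passed only with the replicate block (adjusted p = 0.106, and 0.0485 with the block). The RNA-seq call of Itgav was lost without OPC replicate 1 (0.0524) or 2 (0.0586) and its footprint call without oligodendrocyte replicate 2 (0.0651) or the variance trend (0.0612). That of Itga6 was lost when any culture was left out (adjusted p between 0.0689 and 0.157), with median-ratio scaling (0.0696) and without the trend (0.0662). The RNA-seq call of Itgb8 was lost without OPC replicate 1 (0.113), OPC replicate 2 (0.0734), oligodendrocyte replicate 2 (0.113) or the trend (0.0596), and its footprint call without oligodendrocyte replicate 2 (0.103) or the trend (0.0538).

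The 250 bases before the RefSeq start of Itgb1 (GRCm38.p6, chr8:128685404-128685653, plus strand) are shown with those of Itgav because Itgav passed the test and its partner did not. Capitals in the run of Itgb1 mark GGAATG and, on the other strand, ACAAAG.
Itgb1: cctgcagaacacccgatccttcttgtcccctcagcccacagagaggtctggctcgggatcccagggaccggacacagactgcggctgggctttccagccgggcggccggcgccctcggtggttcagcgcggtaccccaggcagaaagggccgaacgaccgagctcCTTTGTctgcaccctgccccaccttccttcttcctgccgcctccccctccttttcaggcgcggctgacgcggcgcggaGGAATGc
Itgav: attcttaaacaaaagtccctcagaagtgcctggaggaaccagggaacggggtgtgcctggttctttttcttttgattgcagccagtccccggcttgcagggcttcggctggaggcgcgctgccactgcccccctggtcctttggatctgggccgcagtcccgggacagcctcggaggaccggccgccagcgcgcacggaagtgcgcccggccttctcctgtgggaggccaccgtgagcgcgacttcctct
The run of Itgav, at chr2:83724147-83724396 on the plus strand, holds neither of these, and both are GC-rich, at 68.0% and 64.4%.

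Inside the cell, the clearest rise was in Parvb, which encodes β-parvin, an actin-binding partner of integrin-linked kinase. Parvb RNA went from 3.69 and 1.53 FPKM in OPCs to 107 and 70.2 FPKM in oligodendrocytes (5.13 ± 0.45, adjusted p = 0.00139). Its footprints went from 20.3 and 18.4 FPKM to 845 and 798 FPKM (5.40 ± 0.12, adjusted p = 0.00278), the highest footprint level of any member in oligodendrocytes. Ilk, the pseudokinase that holds parvin to integrin β tails, rose from 42.9 and 34.6 FPKM to 127 and 110.0 FPKM in RNA-seq (1.62 ± 0.18, adjusted p = 0.00281) and from 135 and 138 FPKM to 406 and 419.6 FPKM in footprints (1.59 ± 0.10, adjusted p = 0.00484). Parva, the α-parvin alternative to Parvb in the same complex, had 17.9 and 14.8 against 10.8 and 6.78 FPKM in RNA-seq (-0.92 ± 0.30, adjusted p = 0.0619). Parva passed with the replicate block (0.0264) and without oligodendrocyte replicate 1 (0.0323). The order of the parvins therefore turned over: every OPC value of Parva exceeded every OPC value of Parvb in RNA-seq and in footprints (90.5 and 94.0 FPKM for Parva), and every oligodendrocyte value of Parvb exceeded every one of Parva (58.1 and 24.2 FPKM in footprints).

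Pxn (paxillin), a docking protein of focal adhesions, had 12.2 and 6.28 against 24.0 and 14.3 FPKM in RNA-seq (1.07 ± 0.41, adjusted p = 0.0944, and 0.0115 with the replicate block). Its footprints rose from 24.2 and 24.8 FPKM to 69.9 and 59.1 FPKM (1.39 ± 0.17, adjusted p = 0.0131). Pxn and Parva were named after their values were seen. Neither talin gene, which couple integrin tails to actin, passed: Tln1 had 20.2 and 23.2 against 18.4 and 15.0 FPKM and Tln2 had 5.27 and 4.35 against 4.92 and 1.82 FPKM in RNA-seq. Ilk lost its RNA-seq call without OPC replicate 2 (adjusted p = 0.0508), and exons of Ilk overlap Rrp8 and Taf10 on the other strand, from which reads cannot be told apart without strand information.

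The 250 bases before the Parvb start (GRCm38.p6, chr15:84231793-84232042, plus strand, 65.2% GC) hold none of the letters searched and are shown because Parvb had the largest change among the adhesion proteins.
Parvb: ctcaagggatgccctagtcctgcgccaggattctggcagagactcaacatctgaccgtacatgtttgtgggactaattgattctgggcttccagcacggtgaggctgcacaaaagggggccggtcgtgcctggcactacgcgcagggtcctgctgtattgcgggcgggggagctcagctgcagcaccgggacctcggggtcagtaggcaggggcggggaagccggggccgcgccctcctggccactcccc

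**Figure D2:**
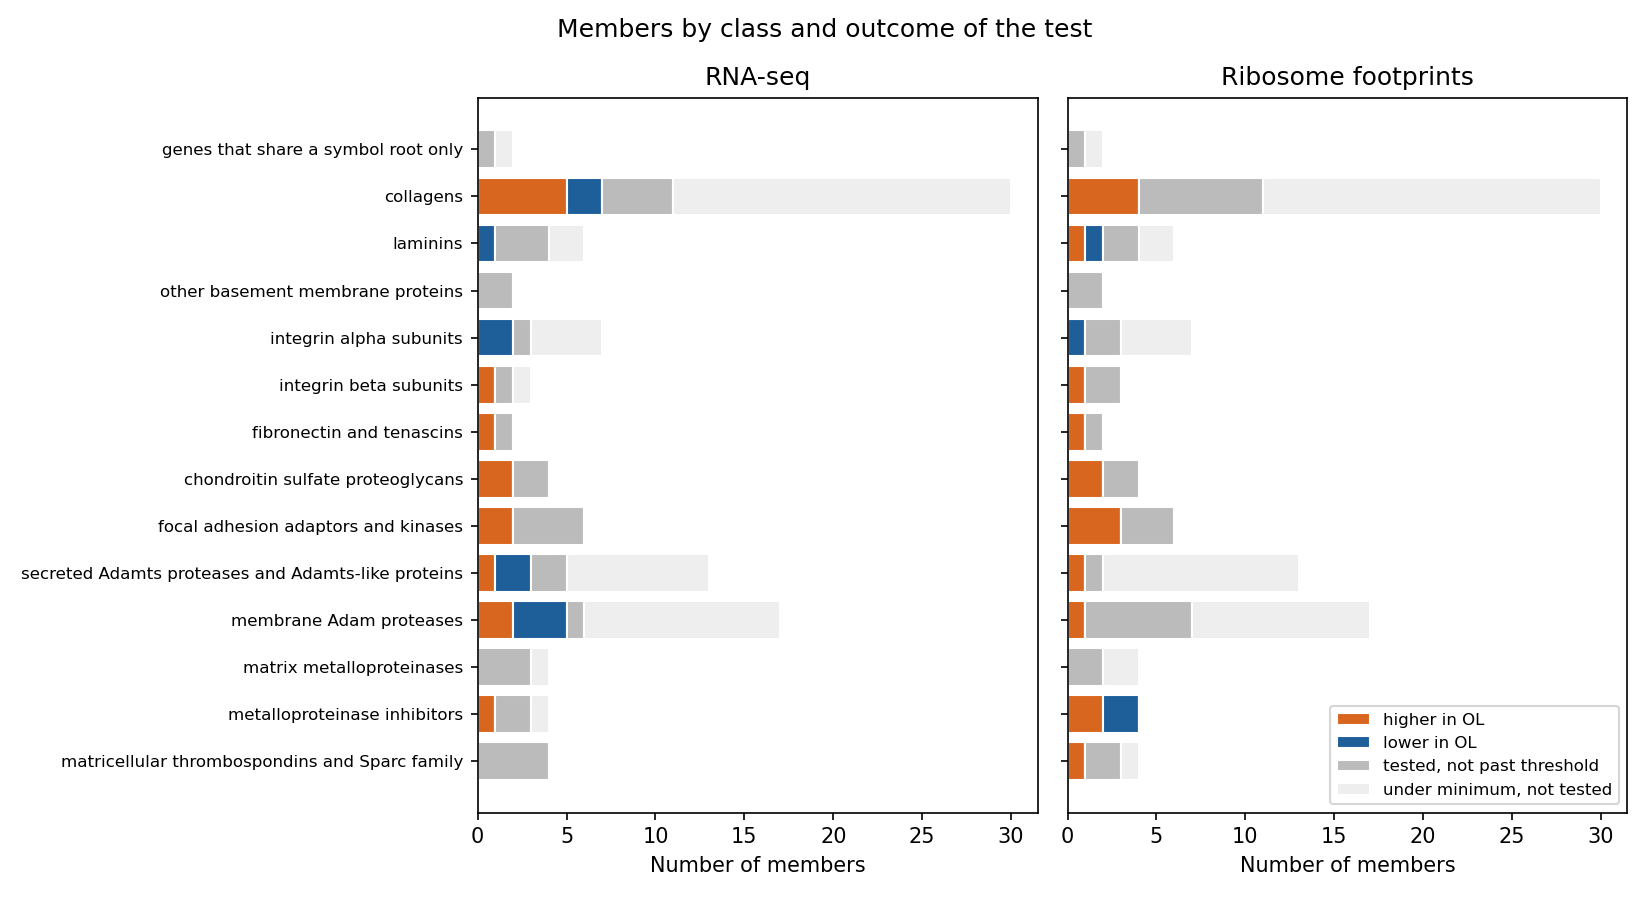
Number of members in each of the 14 classes by outcome of the test in RNA-seq (left) and footprints (right), with orange for higher and blue for lower in oligodendrocytes. Collagens, the focal adhesion proteins and the chondroitin sulfate proteoglycans hold 9 of the 15 members higher in RNA-seq, and no member of the last 2 classes was lower.

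The membrane proteases of the Adam family moved in both directions. In RNA-seq 2 of 6 tested members rose and 3 fell, and the 2 that rose, Adam11 and Adam23, encode members that lack protease activity and serve as surface receptors. Adam11 RNA was at 0.240 and 0.190 FPKM in OPCs but 44.1 and 38.8 FPKM in oligodendrocytes (7.04 ± 0.36, adjusted p = 0.000407). Its footprints were listed at 0 in both OPC libraries and were at 68.4 and 68.1 FPKM in oligodendrocytes (adjusted p = 0.00524). Adam23 rose from 1.05 and 0.949 FPKM to 6.07 and 5.96 FPKM in RNA-seq (2.48 ± 0.41, adjusted p = 0.00834), while its oligodendrocyte footprints were 9.39 FPKM and a value listed at 0. The Adam23 call was lost without OPC replicate 1 (0.0709) or 2 (0.0887).

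The 3 Adam genes that fell encode catalytically active proteases. Adam12, known from regenerating muscle, fell from 32.5 and 35.7 FPKM to 1.65 and 1.48 FPKM in RNA-seq (-4.36 ± 0.26, adjusted p = 0.000532). Adam12 footprints were 56.3 and 69.0 FPKM in OPCs and 4.43 FPKM and a value listed at 0 in oligodendrocytes (adjusted p = 0.0882; 0.0227 with a pseudocount of 1, and 0.00882 and 0.0401 without oligodendrocyte replicates 1 and 2). Adam15 fell from 16.8 and 12.4 FPKM to 6.66 and 2.55 FPKM in RNA-seq (-1.78 ± 0.48, adjusted p = 0.0381). Adam10, the protease that releases the ectodomains of Notch and amyloid precursor protein, fell from 63.1 and 59.8 FPKM to 40.2 and 34.4 FPKM (-0.72 ± 0.17, adjusted p = 0.0228). Its footprints, 103 and 118 against 81.2 and 102 FPKM, were separated by about 1 FPKM and did not pass (adjusted p = 0.305). The calls of Adam10 and Adam15 were lost without OPC replicate 1 (adjusted p = 0.12 and 0.25), OPC replicate 2 (0.118 and 0.193), oligodendrocyte replicate 2 (0.0914 and 0.0892) and the variance trend (0.0737 and 0.08), and that of Adam15 also with no minimum (0.0623). Adam17, the active protease that releases TNF, had 12.4 and 16.2 against 12.5 and 10.5 FPKM in RNA-seq (-0.30 ± 0.25, adjusted p = 0.382). Its footprints were above the OPC values in both oligodendrocyte cultures, at 14.5 and 20.5 against 29.0 and 28.9 FPKM, without passing (0.74 ± 0.26, adjusted p = 0.118), and its exons overlap Iah1 on the other strand. Adam22, a relative of Adam11 and Adam23 without protease activity, was tested only in footprints, where 0.826 and 0.921 FPKM in OPCs stood beside 8.01 FPKM and a value listed at 0 (adjusted p = 0.975).

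Of the secreted Adamts group, 5 of 13 were tested in RNA-seq, where 1 rose and 2 fell. Adamts1, which cuts versican and other lecticans, rose from 5.13 and 6.50 FPKM to 11 and 13.8 FPKM in RNA-seq (1.08 ± 0.28, adjusted p = 0.0316) and from 6.59 and 8.63 FPKM to 32.1 and 29.6 FPKM in footprints (2.02 ± 0.28, adjusted p = 0.0164). The groups were apart in both kinds. Adamts10, a binder of fibrillin microfibrils, fell from 9.44 and 6.81 FPKM to 3.23 and 2.09 FPKM (-1.59 ± 0.38, adjusted p = 0.0259), and Adamts6 from 6.24 and 3.96 FPKM to 1.91 and 1.23 FPKM (-1.63 ± 0.46, adjusted p = 0.0427). All 3 calls were lost without OPC replicate 1 (adjusted p between 0.176 and 0.25), OPC replicate 2 (0.132 to 0.151) and oligodendrocyte replicate 2 (0.0899 to 0.128), that of Adamts6 also with scaling (0.0523) or no minimum (0.0663), and the footprint call of Adamts1 without oligodendrocyte replicate 2 (0.0703).

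No matrix metalloproteinase passed in limma, with 3 tested in RNA-seq and 2 in footprints and none of these at an unadjusted p under 0.05 in RNA-seq. Mmp16, a membrane-bound member and the most abundant of the 4, had 21.6 and 20.7 against 24.9 and 29.5 FPKM (adjusted p = 0.192). Of the inhibitors, Timp3, which binds to the matrix, rose from 38.9 and 36.0 FPKM to 90.9 and 82.2 FPKM in RNA-seq (1.21 ± 0.16, adjusted p = 0.00416) and from 191 and 208 FPKM to 659.9 and 672 FPKM in footprints (1.74 ± 0.11, adjusted p = 0.00473). Timp2 footprints, named after the values were seen, rose from 60.0 and 59.1 FPKM to 165 and 103 FPKM (1.13 ± 0.26, adjusted p = 0.0488, and 0.0545 with no minimum). Timp1 moved the other way, with footprints of 11.5 and 8.75 FPKM in OPCs and both oligodendrocyte libraries listed at 0 (adjusted p = 0.0174). In RNA-seq it was 1.89 FPKM in OPC replicate 1 and listed at 0 in the other 3 libraries. Timp4 footprints fell from 93.7 and 83.2 FPKM to 46.3 and 56.4 FPKM (-0.79 ± 0.17, adjusted p = 0.0413). Its call was lost with the replicate block (0.066), median-ratio scaling (0.089), no variance trend (0.108) and without oligodendrocyte replicate 1 (0.0657) or 2 (0.0697). The Timp3 RNA-seq call was lost without OPC replicate 2 (0.0595), and that of Timp2 footprints without the trend (0.113). Exons of Timp3 and Timp4 overlap Syn3 and Syn2 on the other strand.

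Sparc, a collagen-binding secreted glycoprotein, was abundant throughout. Its RNA stood at 72.9 and 92.2 FPKM before differentiation and 139 and 109 FPKM after (0.59 ± 0.20, adjusted p = 0.0685; 0.0297 with median-ratio scaling and 0.0442 with the replicate block). Sparc footprints rose from 410.2 and 498 FPKM to 812 and 741 FPKM (0.78 ± 0.15, adjusted p = 0.0318), a call lost without oligodendrocyte replicate 1 (0.0794) or 2 (0.106) and without the trend (0.105). Sparcl1, its relative, had 54.0 and 50.4 FPKM in OPCs against 62.4 and 26.3 FPKM in oligodendrocytes, which overlap (adjusted p = 0.505), and passed as lower without oligodendrocyte replicate 1 (0.0282). Thbs1 (thrombospondin-1), at 0.135 and 0.897 against 2.48 and 1.55 FPKM in RNA-seq, did not pass (adjusted p = 0.135).

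**Figure D3:**
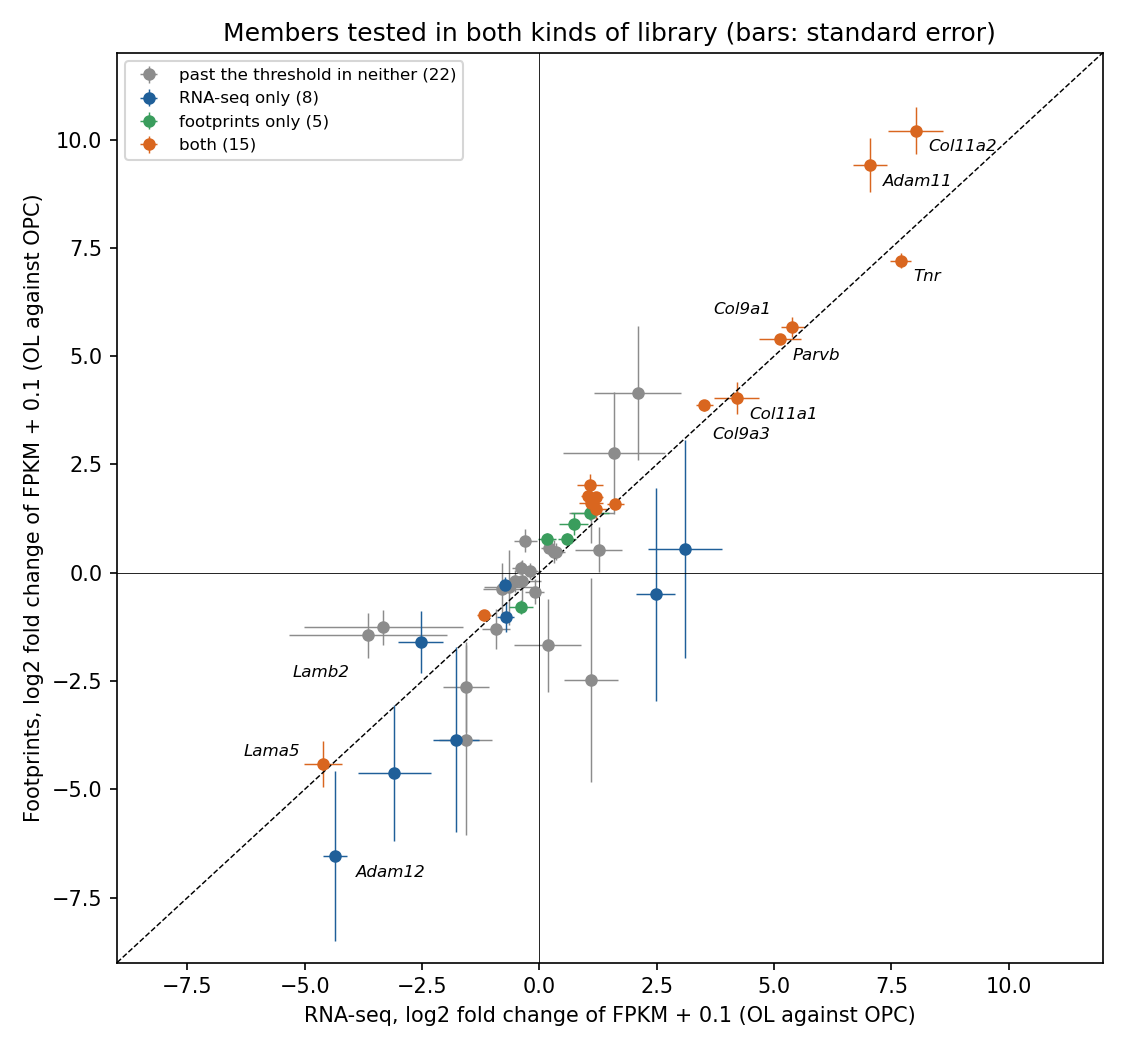
Log2 fold change of FPKM + 0.1 in RNA-seq (x axis) against footprints (y axis) for the 50 members tested in both, with bars of 1 standard error and a dashed line of equal change. The 15 members past the threshold in both kinds all moved the same way in both, with Adam11 and Col11a2, whose OPC footprints are listed at 0, above the line, and the members with the longest vertical bars, such as Adam12, have a footprint library listed at 0.

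The comparison of footprints with RNA asks whether ribosome density (RD), footprint FPKM over RNA-seq FPKM, differed between cell types for these genes. No member passed: limma called 0 of 50 members tested (background 0.0124% of 8056 transcripts, that is 1 transcript). An unadjusted p under 0.05 was found for 6 of these 50 members and for 387 of the 8056 transcripts. In simulated data this test recovered 0 of 200 transcripts changed by a log2 of 1, so changes of that size would be missed. The log2 change in RD was above 0 for 33 of the 50, with a median of 0.26 over members and 0.10 over all transcripts. In the plot of RD by culture, Bcan had 1.47 and 1.39 in OPCs and 2.45 and 2.33 in oligodendrocytes (log2 change 0.75 ± 0.15, adjusted p = 0.495). Timp3 had 4.91 and 5.79 against 7.26 and 8.18 (0.53 ± 0.16, adjusted p = 0.875). Tnr had 2.90 and 3.07 against 1.95 and 2.01 (-0.49 ± 0.28, adjusted p = 0.875). In these 3 genes the cultures of each type did not overlap, yet no adjusted p came near the threshold. They are examples, as other members were separated too, such as Adamts1 (1.29 and 1.33 against 2.91 and 2.15). Lamc1 was another (2.38 and 2.27 against 3.29 and 3.95). The share of all transcripts so separated is not given. Without oligodendrocyte replicate 1, 6 members passed for RD (Adam12, Adam15, Col5a1, Mmp17, Lamb2 and Itgb3bp), each with the only remaining oligodendrocyte footprint or RNA-seq value listed at 0.

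**Figure D4:**
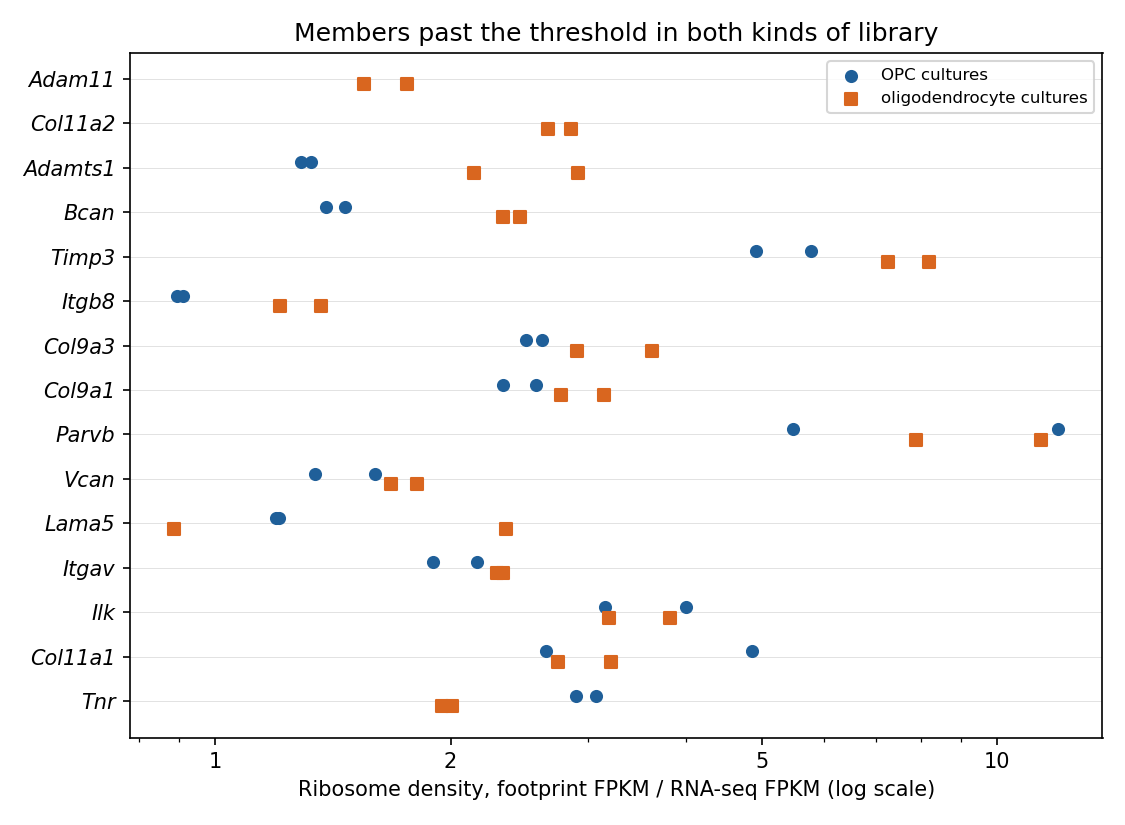
Ribosome density, footprint FPKM over RNA-seq FPKM on a log scale, in each culture for the 15 members past the threshold in both kinds of library. Adam11 and Col11a2 have no OPC point because their OPC footprints are listed at 0, and Tnr has its oligodendrocyte cultures (1.95 and 2.01) below its OPC cultures (2.90 and 3.07).

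Members differed among themselves in density by orders of magnitude. The ratio of mean footprint to mean RNA-seq FPKM had a median of 2.04 over the 56 members tested in RNA-seq and 1.77 over all 8346 transcripts. It was highest for Itgb3bp (9.51), Parvb (9.20), Timp3 (6.98) and Sparc (5.96). Their coding sequences are short, at 528, 1095, 633 and 906 bases against a median of 3086 over members. The part of coding length in this ratio was not tested. For Itgb3bp the mean RNA also includes an oligodendrocyte value listed at 0. At the other end, 5 members were under 0.2, a limit set after seeing the values, which is 8.93% of members against 1.82% of all transcripts tested. They were Adamtsl4 (0), Adamts6 (0.00520), Mmp24 (0.0292), Adamts10 (0.139) and Col27a1 (0.181). Adamts6, for example, had 6.24 and 3.96 FPKM in OPC RNA-seq but 0.0694 FPKM and a value listed at 0 in OPC footprints. Col27a1 had 2.38 and 5.80 FPKM in oligodendrocyte RNA-seq and 0.515 and 1.07 FPKM in footprints, and its RNA-seq difference from 1.0 and 0.723 FPKM in OPCs did not pass (2.00 ± 0.61, adjusted p = 0.052). It did with the replicate block (0.0437), median-ratio scaling (0.0471), a pseudocount of 1 (0.0445) and without oligodendrocyte replicate 1 (0.0225).

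In features of the transcripts that the choice by symbol did not use, members had long coding sequences, with a median of 3086 bases against 1374 over all listed transcripts. The share of phenylalanine codons that are UUU had a median of 0.442 over members and 0.429 over all, and the AAA share of lysine codons 0.374 and 0.368. Vcan and Col11a1 were at the UUU-rich end (0.655 and 0.652), whereas Bcan and Adam11 both had 0.273. These are descriptions, and the rising genes lie at both ends.

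Other genes of the same pathways, 125 in 5 lists with 87 listed, were tested in the same fits. In RNA-seq 14 of 70 rose and 20 fell (20.0% and 28.6%, against 13.0% and 20.2% of all transcripts), and in footprints 15 of 72 rose and 11 fell (20.8% and 15.3%, against 12.8% and 10.8%), so falls led in RNA-seq here as over all transcripts. Secreted matrix and hyaluronan genes had 7 falls and 2 rises among 14 in RNA-seq. Fbln2 (fibulin-2) fell from 53.1 and 61.4 FPKM to 0.321 and 0.524 FPKM (-6.80 ± 0.34), and Lgals1 (galectin-1) from 957 and 847 FPKM to 72.9 and 62.9 FPKM (-3.73 ± 0.16). Among 11 non-integrin receptors, 4 fell and 1 rose in RNA-seq, whereas 1 fell and 3 rose in footprints. Of the 4 falls, the syndecans Sdc1, Sdc3 and Sdc4 were close to the threshold (adjusted p = 0.0498, 0.049 and 0.0487). Cd44, the hyaluronan receptor, went from 12.9 and 14.6 FPKM to 1.62 and 1.13 FPKM, and Ddr1, a collagen receptor kinase, from 34.5 and 39.5 FPKM to 72.6 and 52.6 FPKM. Chondroitin sulfate synthesis had 3 rises and 3 falls among 10, with Chst3 (a 6-O-sulfotransferase) rising by 2.47 ± 0.34 and Chsy1 (a chain polymerase) falling by 1.76 on the log2 scale. Collagen folding had 3 rises and 3 falls among 11. Serpinh1, the collagen chaperone, fell from 238 and 225 FPKM to 46.4 and 59.5 FPKM while the collagen IX chains rose, and Plod1, a lysyl hydroxylase, rose from 11.7 and 11.9 FPKM to 30.5 and 28.8 FPKM. Adhesion signaling had 5 rises and 3 falls among 24. Fyn, the Src-family kinase downstream of integrins in this lineage, rose from 149 and 129 FPKM to 324 and 289 FPKM (1.14 ± 0.16), and Lims1, the PINCH partner of Ilk, fell from 96.9 and 86.9 FPKM to 42.6 and 38.7 FPKM (-1.17 ± 0.16). Thus within the complex of Ilk, parvin and PINCH the 3 genes called in RNA-seq moved in unlike directions.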

How the data were processed

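RNA-seq and ribosome footprints were measured in 2 OPC and 2 oligodendrocyte cultures. The deposited values are FPKM, made by the authors from reads clipped to a minimum of 18 bases, aligned to GRCm38 with HISAT2 2.1.0 and quantified with StringTie 1.3.5 on canonical Gencode coding transcripts, footprints over the coding sequence, without a strand option. FPKM tables hold no counts, so depth was estimated from the smallest steps of the values (aligned Mb, possibly off by a constant factor), and no counting interval is given. All columns were mapped to samples (0 left out).

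Log2(FPKM + 0.1) values were compared between cell types with limma 3.58.1 (R 4.3.3, trended variance, Benjamini-Hochberg adjustment over all transcripts tested, threshold 0.05) keeping transcripts that averaged 1 FPKM or more in the 4 libraries of a kind. Fold changes are on this scale and understate changes of genes that are low in all cultures of a group. Where a single culture was listed at 0, that value pulls the group's mean log2 far down and can enlarge or turn round the change. Adam23 footprints, for example, averaged 1.31 FPKM in OPCs and 4.70 FPKM in oligodendrocytes but had a log2 fold change of -0.50. RD was tested by an interaction term (library kind by cell type) fitted to all 8 libraries. The tests were checked on simulated data: of 200 transcripts changed by a log2 of 2, 133 were recovered in RNA-seq, 71 in footprints and 33 in RD. Alternatives were median-ratio scaling, no minimum, no variance trend, a pseudocount of 1, the replicate number as a block, a culture term for RD, and leaving out each culture.

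Per the study's methods the oligodendrocyte cultures were differentiated from the OPC replicates used here. That cultures of the same number belong together is inferred from the labels, and the replicate block rests on it. Same-numbered cultures deviated together only weakly (Pearson r of 0.108 in RNA-seq over 8346 transcripts and 0.086 in footprints over 8342).

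Members were matched by symbol, and members and gene lists were chosen with earlier results of these data known. Genes named were, among members past the threshold with both same-numbered pairs moving alike, the 12 largest rises and 12 largest falls in RNA-seq and the 6 and 6 in footprints, the 5 largest and 5 smallest RD changes, the most abundant member of each class, and a fixed list of 21 genes of which 7 were not among the members. Itgbl1, Col2a1, Col4a2, Col4a3, Col4a5, Lama4, Hspg2, Itgb8, Itga9, Adam17, Adam22, Parva, Pxn, Tln1, Tln2, Timp2, Adamtsl4, Mmp24, Col16a1 and Col27a1 fall outside this rule and were chosen after their values were seen. Upstream bases come from RefSeq (GRCm38.p6), transcript positions from Gencode.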

Additional observations from a re-analysis of the deposited data

How the results depend on the processing

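No called member changed direction under any alternative fit. The members' median log2 fold change in RNA-seq was 0.36 with median-ratio scaling, turned to -0.18 with no minimum (100 members, many of them listed at 0 in some libraries), and ran from 0.051 to 0.26 when single cultures were left out. In footprints it ran from 0.076 to 0.73. Without oligodendrocyte replicate 1 lower members outnumbered higher ones by a narrow margin in both kinds, and the shares over all transcripts in that fit are not given. Without the variance trend, 1036 transcripts and 2 lower members were called in footprints. Leaving out single cultures gave 364 to 2599 called transcripts, 6 to 15 higher and 1 to 16 lower members in RNA-seq, and 0 to 3442 called transcripts, 0 to 16 higher and 0 to 17 lower members in footprints. In these fits the lone culture of a cell type is assumed to vary like the other cell type, and fewer cultures enter each test. For RD, 3 transcripts were called with scaling, 14 without the trend, 0 with the replicate block and 0 with a culture term, and leaving out single cultures gave 0 to 883 transcripts and 0 to 6 members. The replicate block gave 20 higher and 13 lower members in RNA-seq, adding Col16a1 (adjusted p = 0.0471) to those given with their genes, removed Timp4 in footprints, and changed no other call of a member. The cause of these changes was not tested, except as their construction shows. In simulated data a log2 change of 1 was recovered for 44 of 200 transcripts in RNA-seq, 6 of 200 in footprints and 0 of 200 in RD. A gene that missed the threshold therefore cannot be taken as equal between the cell types. Log2 fold changes of low genes shrank with a pseudocount of 1, to 6.80 for Tnr, 5.34 for Col11a2, 5.12 for Adam11 and -1.61 for Col5a2 in RNA-seq.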
